A study of Arabidopsis thaliana with 10 samples.

Results

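The major light-harvesting complex of photosystem II (LHCII) is described here through the 9 genes that encode its subunits in Arabidopsis thaliana. These are LHCB1.1 (AT1G29920), LHCB1.2 (AT1G29910), LHCB1.3 (AT1G29930), LHCB1.4 (AT2G34430), LHCB1.5 (AT2G34420), LHCB2.1 (AT2G05100), LHCB2.2 (AT2G05070), LHCB2.3 (AT3G27690) and LHCB3 (AT5G54270). The rule names them by gene identifier as the subunits of the complex and sets no threshold on a measured value; the complex itself was taken up with earlier results of these data known. They were taken from 33602 genes listed in the deposited counts, and all 9 passed the filter on low counts that kept 20628 genes.

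LHCII is the antenna that binds most of the chlorophyll of the thylakoid membrane and passes the absorbed light energy to photosystem II. Its proteins are encoded in the nucleus, made in the cytosol, imported into the plastid and inserted into the thylakoid. LHCB1 and LHCB2 proteins form trimers and are the targets of the kinase STN7 in state transitions, while LHCB3 occurs in mixed trimers and lacks that phosphorylation site. Transcription of LHCB genes rises in light and depends on the state of the plastid, which has made it a standard readout of plastid-to-nucleus signalling.

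RNA was sequenced from 10 libraries, 2 in each of 5 groups, of whole seedlings 5 days old, each library from a pool of over 100 plants. The groups were MORF2OX, MORF2OX(w), gun1-9 and wild type, all grown on 5 µM norflurazon, and untreated wild type. All share the Col6-3 background, 24 h of light a day (100 µmol m-2 s-1) and 22 °C. MORF2OX and MORF2OX(w) overexpress MORF2, a plastid RNA editing factor, and the labels give them phenotypes of unlike strength. The line gun1-9 carries a mutation in GUN1, a plastid pentatricopeptide repeat protein needed for plastid-to-nucleus signalling. Norflurazon blocks carotenoid synthesis, so that plastids bleach in light. The sources used here name neither the promoter that drives MORF2 nor the lesion in gun1-9. Untreated libraries of the 3 lines are not analysed here, so what a line does without norflurazon cannot be told apart from what it does on it. All comparisons of a line with wild type on norflurazon share the same 2 wild type libraries.

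Total counts ran from 19018594 to 25220815 per library. MORF2 averaged 7608 ± 510 CPM (counts relative to the library's total, scaled by TMM factors) in MORF2OX and 4721 ± 412 CPM in MORF2OX(w), against group means of 95.2 to 120 CPM in the other 3 groups (SD, n = 2). GUN1 had 154 and 147 CPM in gun1-9, against 191 and 284 CPM in wild type on norflurazon; without the lesion named, this level does not check the label. Replicates differed most in wild type on norflurazon, where chi-square over its degrees of freedom was 36.95, while it was 5.285 to 10.26 elsewhere. Nothing in the labels says that the 2 libraries of a group came from plants grown apart, so the p-values may measure technical spread only. Genes listed as markers of root, shoot epidermis, guard cells and vascular tissue were above 0 in every library of these whole seedlings. In such bulk RNA, fewer green cells and less LHCB RNA per green cell cannot be told apart.

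The 9 genes lie on 4 chromosomes, and 5 of them stand in 2 tight groups (coordinates from the RefSeq annotation of TAIR10.1). On chromosome 1, LHCB1.2 (10472280 to 10473502, minus strand), LHCB1.1 (10474656 to 10475969, minus strand) and LHCB1.3 (10477885 to 10479114, plus strand) are neighbours, with 1153 and 1915 bases between them. LHCB1.1 and LHCB1.3 stand head to head. On chromosome 2, LHCB1.5 (14522524 to 14523568, minus strand) and LHCB1.4 (14524607 to 14525918, plus strand) do so too, with 1038 bases between them. LHCB2.2 (1799234 to 1800472, minus strand) and LHCB2.1 (1822990 to 1824480, minus strand) lie elsewhere on chromosome 2, with 22517 bases and 5 genes between them. LHCB2.3 lies on chromosome 3 (10255906 to 10257489, plus strand) and LHCB3 on chromosome 5 (22038165 to 22039568, plus strand). Each LHCB1 gene has a single exon, whereas LHCB2.2 and LHCB2.3 have 2 and LHCB2.1 and LHCB3 have 3.

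The copies are similar enough to bear on what a count means. Coding sequences of LHCB1.1, LHCB1.2 and LHCB1.3 are 95.7% to 96.4% identical, those of LHCB2.1 and LHCB2.2 96.6%, and those of LHCB1.4 and LHCB1.5 91.4%. Stretches of 50 exonic bases that occur at 1 place only in the genome made up 70.5% of LHCB2.2, 76.5% of LHCB2.1, 79.5% of LHCB1.1 and 82.7% to 89.4% of the other LHCB1 genes. LHCB2.3 and LHCB3 were unique throughout. The sources used here do not say how reads that fit 2 copies were counted, so single values of the LHCB1 genes, LHCB2.1 and LHCB2.2 are uncertain, and sums over copies are given below. LHCB1.3, LHCB1.5, LHCB2.3 and LHCB3 also overlap a protein-coding gene on the opposite strand, by 99 to 595 bases, and the whole of LHCB1.5 (1045 bases) lies within a long noncoding RNA gene on that strand, AT2G08665. They do not give the strand setting of the counting either, so reads from these partners cannot be told apart from antenna reads.

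The promoters are less alike than the coding parts, and 6 of the 9 promoters are shown because these genes mark the extremes of the response and its most similar pair. LHCB1.1 and LHCB1.4 lost the largest share of their transcripts on norflurazon, LHCB1.3 and LHCB1.5 are the neighbours of those genes that kept more, and LHCB2.1 and LHCB2.2 are near-identical copies whose ratio shifted. Each sequence is the 250 bases before the annotated start, 5′ to 3′ on the gene's strand (RefSeq, TAIR10.1). The windows are chr1:10475970-10476219 (LHCB1.1, minus), chr1:10477635-10477884 (LHCB1.3, plus), chr2:14524357-14524606 (LHCB1.4, plus), chr2:14523569-14523818 (LHCB1.5, minus), chr2:1824481-1824730 (LHCB2.1, minus) and chr2:1800473-1800722 (LHCB2.2, minus). Capitals mark matches, on either strand, to the letters searched. These were AAAAATCT and AACAATCT, both bound by the clock factor CCA1, and AAAATATCT, the evening element of clock genes. CCAATC, reported in promoters of genes that the GLK factors activate, was searched as well. The others were the G-box CACGTG of light-regulated genes, then the I-box of the same class of genes, spelled GATAAG, and lastly the core promoter element called the TATA box, spelled TATAAA.
LHCB1.1: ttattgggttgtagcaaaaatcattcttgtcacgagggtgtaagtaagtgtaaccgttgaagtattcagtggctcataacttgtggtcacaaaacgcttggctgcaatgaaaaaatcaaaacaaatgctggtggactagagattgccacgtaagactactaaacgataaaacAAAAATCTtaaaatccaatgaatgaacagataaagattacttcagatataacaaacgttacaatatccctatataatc
LHCB1.3: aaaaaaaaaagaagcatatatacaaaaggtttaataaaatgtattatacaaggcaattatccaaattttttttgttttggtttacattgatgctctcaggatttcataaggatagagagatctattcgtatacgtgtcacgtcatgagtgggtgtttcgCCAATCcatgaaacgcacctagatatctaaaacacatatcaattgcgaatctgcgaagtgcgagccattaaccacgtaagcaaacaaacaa
LHCB1.4: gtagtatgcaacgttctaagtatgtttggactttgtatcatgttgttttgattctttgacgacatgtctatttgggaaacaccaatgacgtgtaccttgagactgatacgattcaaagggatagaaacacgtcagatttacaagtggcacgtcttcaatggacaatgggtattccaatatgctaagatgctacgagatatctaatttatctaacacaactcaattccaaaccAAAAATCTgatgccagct
LHCB1.5: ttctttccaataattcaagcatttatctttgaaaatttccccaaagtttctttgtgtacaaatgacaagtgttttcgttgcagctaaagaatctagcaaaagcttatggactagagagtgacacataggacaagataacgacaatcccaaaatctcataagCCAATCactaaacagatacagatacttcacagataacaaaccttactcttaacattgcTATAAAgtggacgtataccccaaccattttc
LHCB2.1: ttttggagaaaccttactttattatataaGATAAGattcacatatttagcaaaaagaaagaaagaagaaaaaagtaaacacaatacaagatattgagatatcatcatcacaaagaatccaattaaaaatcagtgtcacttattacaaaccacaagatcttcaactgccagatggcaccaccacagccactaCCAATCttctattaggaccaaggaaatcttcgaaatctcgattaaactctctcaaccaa
LHCB2.2: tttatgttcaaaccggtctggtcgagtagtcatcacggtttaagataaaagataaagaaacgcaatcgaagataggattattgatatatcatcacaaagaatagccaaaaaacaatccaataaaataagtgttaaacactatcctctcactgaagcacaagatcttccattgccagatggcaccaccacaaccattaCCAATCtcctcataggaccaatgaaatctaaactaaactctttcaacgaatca

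CCAATC stood in 5 of the 9 windows, those of LHCB1.3, LHCB1.5, LHCB2.1, LHCB2.2 and LHCB2.3, and in 10.2% of 27443 promoters of the same length. Its first base lay 91 and 89 bases before the start in LHCB1.3 and LHCB1.5, and 53 to 59 bases before it in the 3 LHCB2 genes. AAAAATCT stood in LHCB1.1 and LHCB1.4 and in 6.69% of all promoters. CACGTG was found in LHCB2.3 (6.49% of all promoters), GATAAG in LHCB2.1 (12.3%) and TATAAA in LHCB1.5 and LHCB3 (47.3%). AACAATCT and AAAATATCT were in none of the 9 windows and in 1.83% and 2.36% of all promoters. No match to one of these motifs overlapped a match to another in the 9 windows. The shortest annotated leader of a gene differs from 0 bases in LHCB2.3 to 259 in LHCB3, so the 400 bases before the start codon were searched too. There CCAATC was found in 6 genes, LHCB3 being the addition, beside 17.6% of 27443 such windows. AAAAATCT was found in 4 genes, with LHCB1.3 and LHCB2.3 added to LHCB1.1 and LHCB1.4 (10.6% of all windows), so that LHCB1.3 and LHCB2.3 held both. TATAAA was then in 7 genes (56.3%), GATAAG in LHCB1.3, LHCB1.4 and LHCB2.1 (19.5%), CACGTG in LHCB2.3 (7.85%), AACAATCT in LHCB1.3 (3.58%) and AAAATATCT in none (3.2%). Which genes hold a motif thus depended on the window. The 250 bases of LHCB2.1 and LHCB2.2 were 61.4% identical, the highest value of any pair. All other pairs lay between 43.3% and 55.4%, LHCB1.4 and LHCB1.5 at 46.4%. A match only says that these letters are present.

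Summed over the 9 genes, the antenna took 0.159% and 0.135% of all counts in the MORF2OX libraries and 0.0781% and 0.0742% in the MORF2OX(w) libraries. The share was 1.11% and 1.17% in the gun1-9 libraries, 0.0529% and 0.0328% in wild type on norflurazon, and 6.48% and 6.38% in untreated wild type. The order of the groups was the same in all 9 genes, with untreated wild type highest, then gun1-9, MORF2OX, MORF2OX(w) and wild type on norflurazon. In no gene did 2 groups next to each other in that order overlap. Relative to untreated wild type, the mean summed level was 1.73% in MORF2OX, 0.812% in MORF2OX(w), 14.2% in gun1-9 and 0.40% in wild type on norflurazon.

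**Figure D1:**
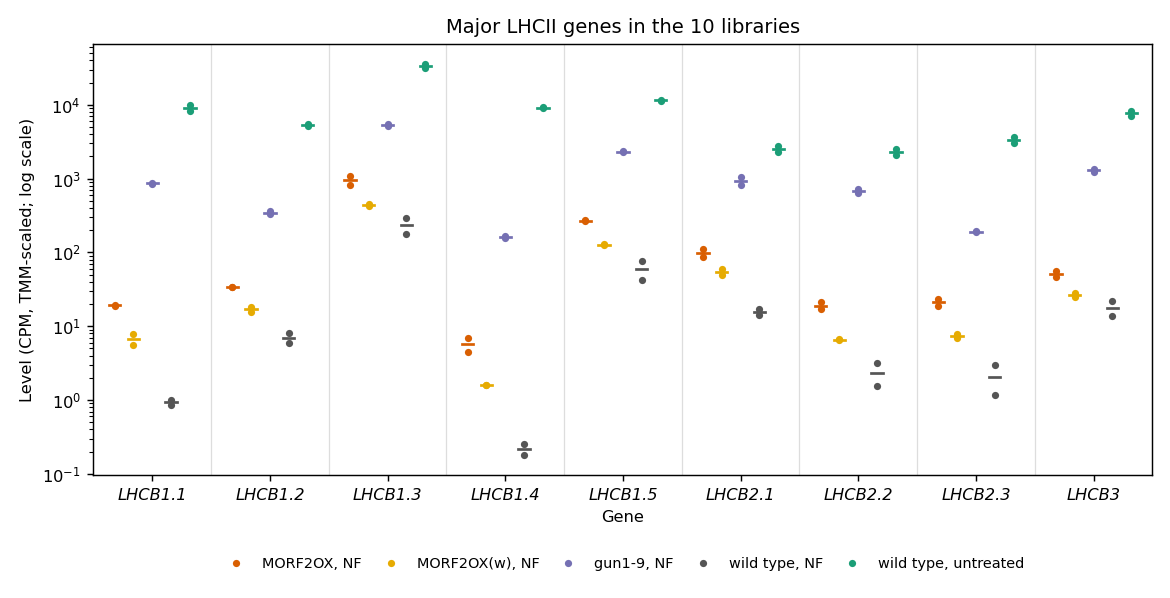
Level of each gene (CPM scaled by TMM factors, log axis) in the 10 libraries. Points are single libraries and lines are group means (n = 2), from left to right MORF2OX, MORF2OX(w), gun1-9 and wild type on norflurazon (NF) and untreated wild type. The lowest level is that of LHCB1.4 in wild type on norflurazon, at 0.251 and 0.178 CPM, and the highest that of LHCB1.3 in untreated wild type, at 36150 and 31910 CPM.

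Norflurazon in wild type lowered every gene of the complex. The most abundant member per kilobase of exon in untreated wild type, LHCB1.3, had 291 and 178 CPM on norflurazon, against 36150 and 31910 CPM untreated. Its log2 fold change of -7.18 (SE 0.27, edgeR adjusted p = 1.15e-09) was the smallest of the 9. LHCB1.5, the next most abundant, had 75.9 and 41.8 CPM on norflurazon, against 11680 and 11340 CPM untreated (log2 fold change -7.61, SE 0.28). Both genes thus kept under 1% of their untreated level, with means of 0.689% and 0.511%. All 9 genes passed in this direction, beside 34.5% of the 20628 genes tested, with edgeR adjusted p-values of 3.01e-11 to 1.15e-09. The median over the 9 genes was -9.59, beside -0.03 over all genes tested.

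The neighbours of these genes fell much further. LHCB1.4 was counted 6 and 5 times in the norflurazon libraries, or 0.251 and 0.178 CPM, against 136361 and 163990 counts, or 8982 and 9194 CPM, in the untreated ones. Its log2 fold change was -15.35 (SE 0.30, edgeR adjusted p = 3.01e-11), and it kept 0.00236% of its untreated level. The 11 counts of the group have an exact Poisson 95% interval of 5.49 to 19.7, for counting error only, and the SE of the fit is smaller than that error. LHCB1.1 was counted 24 times in each norflurazon library, or 1.01 and 0.855 CPM, against 10030 and 8235 CPM untreated (log2 fold change -13.26, SE 0.26). Reads of the near-identical LHCB1.3 were far more numerous in the norflurazon libraries, 6945 and 5008 counts, and their part in the LHCB1.1 count was not tested. LHCB1.2, the other copy of that cluster, had 8.04 and 5.84 CPM on norflurazon, against 5577 and 5100 CPM untreated (log2 fold change -9.59, SE 0.21).

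Among the LHCB2 genes, LHCB2.1 kept the most transcript and LHCB2.3 the least. LHCB2.1 had 17.3 and 14.3 CPM on norflurazon, against 2798 and 2261 CPM untreated (log2 fold change -7.33, SE 0.24). LHCB2.2 had 3.18 and 1.53 CPM, against 2511 and 2083 CPM untreated (-9.95, SE 0.30). LHCB2.3, which shares no 50-base stretch with another place in the genome, had 2.97 and 1.18 CPM, against 3714 and 3038 CPM untreated (-10.70, SE 0.34). LHCB2.3 overlaps AT3G27700 on the opposite strand over 595 bases, and that gene had 420 and 801 counts in these norflurazon libraries beside 71 and 33 of LHCB2.3. LHCB3 had 21.8 and 13.8 CPM on norflurazon, against 8311 and 6982 CPM untreated (-8.75, SE 0.26). In every one of the 9 genes the first norflurazon replicate was higher than the second. Without that replicate the log2 fold changes of LHCB2.2 and LHCB2.3 were -10.54 and -11.47. The 5 genes whose 250-base window holds CCAATC had log2 fold changes of -10.70 to -7.18 and the other 4 of -15.35 to -8.75, ranges that overlap.

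Other antenna genes fell too. The 5 minor antenna genes of photosystem II (LHCB4 to LHCB6) had a median log2 fold change of -6.19 and the 6 antenna genes of photosystem I one of -5.62, and all 11 passed as lower. Of all 20628 genes tested, 6298 were called higher on norflurazon and 7114 lower. Markers of other cell types also moved. Of 10 root markers 6 were higher and 1 lower on norflurazon, with a median log2 fold change of 1.88. Their summed levels were 70.9 and 85.3 CPM on norflurazon, against 98.4 and 95.3 CPM untreated. SCR alone gave 36.4 and 45.4 CPM of these sums on norflurazon, against 77.5 and 69.8 CPM untreated. All 5 shoot epidermis markers and 4 of 5 in each of the guard cell and vascular lists were lower, with medians of -1.24, -1.44 and -0.74. Summed seed storage markers were 7.74 and 29.2 CPM on norflurazon, against 1.65 and 180 CPM untreated, so that the second untreated library stood apart. Without that library all 9 antenna genes still passed as lower. The part of these cell types in the antenna values was not tested.

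**Figure D2:**
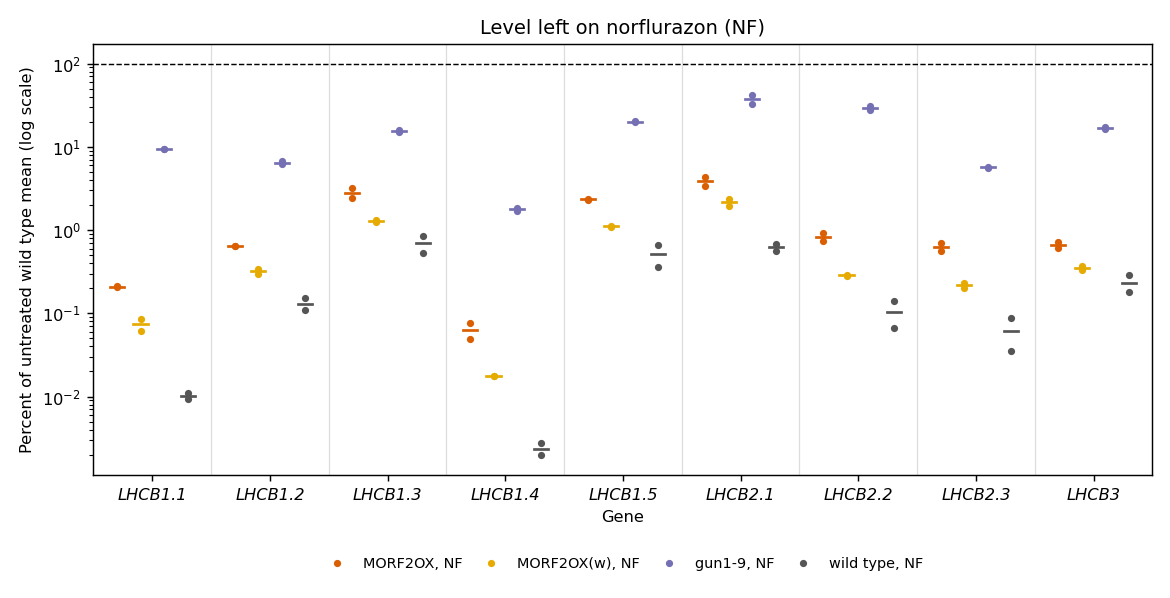
Level of each gene on norflurazon as a percent of the mean of the 2 untreated wild type libraries (log axis, dashed line at 100%). Points are libraries and lines group means (n = 2), from left to right MORF2OX, MORF2OX(w), gun1-9 and wild type. LHCB1.4 is the lowest gene in all 4 groups, at 0.0629%, 0.0177%, 1.77% and 0.00236%, and LHCB2.1 the highest in the first 3, at 3.88%, 2.15% and 37.2%.

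In gun1-9 on norflurazon every gene of the complex was far above wild type on norflurazon. The increase was largest in the 2 genes with the least transcript in wild type, a level that also enters the fold. LHCB1.1 had 854 and 871 CPM in gun1-9, against 1.01 and 0.855 CPM in wild type on norflurazon, a log2 fold change of 9.86 (SE 0.24, edgeR adjusted p = 3.42e-10). LHCB1.4 had 156 and 167 CPM in gun1-9, against 0.251 and 0.178 CPM in wild type (9.54, SE 0.28). LHCB1.3 had 5126 and 5462 CPM in gun1-9, against 291 and 178 CPM in wild type, the smallest change of the 9 (4.50, SE 0.24, edgeR adjusted p = 4.65e-08). All 9 genes passed as higher, beside 22.9% of all genes tested, with a median of 6.19 beside -0.04 over all genes. The medians of the minor antenna and of the photosystem I antenna were 4.19 and 3.85. Of all 20628 genes tested, 4310 were called lower in gun1-9. Shoot epidermis markers were lower in gun1-9 in 4 of 5 genes (summed levels of 497 and 501 CPM in gun1-9, against 676 and 877 CPM in wild type) and vascular markers in 5 of 5 (113 and 129 CPM, against 180 and 177 CPM). Of 10 root markers 1, SCR, was higher (1.52), and the median over the list was -0.30. Their summed level was 159 and 138 CPM in gun1-9, against 70.9 and 85.3 CPM in wild type. SCR alone gave 127 and 108 CPM of that sum in gun1-9, against 36.4 and 45.4 CPM in wild type. In the guard cell list SPCH, which acts earlier in the stomatal lineage, was higher (0.86). In the seed storage list 2 genes were lower (summed levels of 1.24 and 1.16 CPM in gun1-9, against 7.74 and 29.2 CPM). Their part in the antenna values was not tested.

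The other members lay between these values. LHCB1.2 had 330 and 361 CPM in gun1-9, against 8.04 and 5.84 CPM in wild type on norflurazon (5.64, SE 0.18). LHCB1.5 had 2284 and 2333 CPM in gun1-9, against 75.9 and 41.8 CPM in wild type (5.30, SE 0.25). Both thus rose by less than their cluster neighbours LHCB1.1 and LHCB1.4. LHCB2.1 had 831 and 1051 CPM in gun1-9, against 17.3 and 14.3 CPM in wild type (5.90, SE 0.22). LHCB2.2 had 643 and 715 CPM in gun1-9, against 3.18 and 1.53 CPM in wild type (8.19, SE 0.28). The groups were far apart in each of these genes. LHCB2.3 had 195 and 188 CPM in gun1-9, against 2.97 and 1.18 CPM in wild type (6.56, SE 0.30). LHCB3 had 1245 and 1339 CPM in gun1-9, against 21.8 and 13.8 CPM in wild type (6.19, SE 0.24). Without the first wild type library on norflurazon, LHCB2.2 stood at 8.79 and LHCB2.3 at 7.34.

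None of the genes reached the untreated level in gun1-9. All 9 were lower in gun1-9 on norflurazon than in untreated wild type, beside 30.8% of all genes tested, and here both the line and the norflurazon differ. LHCB2.1 and LHCB2.2 came nearest, at 37.2% and 29.6% of the untreated mean (log2 fold changes -1.43, SE 0.18, and -1.76, SE 0.20). LHCB1.5, LHCB3 and LHCB1.3 stood at 20.1%, 16.9% and 15.6%, and LHCB1.1 at 9.44%. LHCB1.2 and LHCB2.3 stood at 6.47% and 5.67%. LHCB1.4 stood at 1.77% (-5.82, SE 0.19, edgeR adjusted p = 2.04e-09), so the gene with the second largest rise over wild type on norflurazon was also the one farthest below untreated wild type.

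In MORF2OX on norflurazon the antenna genes were also above wild type on norflurazon, by less than in gun1-9. LHCB1.4 had 6.94 and 4.49 CPM in MORF2OX, against 0.251 and 0.178 CPM in wild type on norflurazon (log2 fold change 4.72, SE 0.32, edgeR adjusted p = 1.99e-06). By comparison LHCB1.1 had 19.4 and 18.9 CPM in MORF2OX, against 1.01 and 0.855 CPM in wild type (4.36, SE 0.22). LHCB1.3 had 1085 and 826 CPM in MORF2OX, against 291 and 178 CPM in wild type (2.03, SE 0.22). As in gun1-9, the 2 genes lowest in wild type had the largest changes. The wild type level that ranks these genes also enters their fold. The same 2 wild type libraries serve the comparison of every line, so this recurrence is not independent. LHCB1.2 had 34.1 and 34.0 CPM in MORF2OX, against 8.04 and 5.84 CPM in wild type (2.3, SE 0.17), and LHCB1.5 had 273 and 265 CPM, against 75.9 and 41.8 CPM (2.19, SE 0.22). All 9 genes passed as higher, beside 19.3% of all genes tested, with a median of 2.64 beside 0.02 over all genes. Minor antenna genes had a median of 1.93 and photosystem I antenna genes one of 2.28. Of all genes tested, 2899 were called lower in MORF2OX. Of the cell type markers, 1 root, 1 epidermis and 2 vascular genes were lower in MORF2OX and no root, guard cell, epidermis or vascular marker was higher. Of the seed storage markers 2 were lower, with summed levels of 1.23 and 1.48 CPM in MORF2OX, against 7.74 and 29.2 CPM in wild type. The part of these cell types was not tested. Without the second MORF2OX library 2268 of all genes were called higher, against 3987 with it, and all 9 antenna genes still passed.

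LHCB3 changed least in MORF2OX. It had 46.5 and 55.4 CPM in MORF2OX, against 21.8 and 13.8 CPM in wild type on norflurazon, a log2 fold change of 1.52 (SE 0.20, edgeR adjusted p = 0.000184). The LHCB2 genes lay higher, with 2.64 (SE 0.20) for LHCB2.1, 3.03 (SE 0.25) for LHCB2.2 and 3.38 (SE 0.29) for LHCB2.3. LHCB2.1 had 86.3 and 110 CPM in MORF2OX, against 17.3 and 14.3 CPM in wild type. LHCB2.2 had 16.9 and 21.1 CPM in MORF2OX, against 3.18 and 1.53 CPM in wild type. LHCB2.3 had 23.5 and 18.9 CPM in MORF2OX, against 2.97 and 1.18 CPM in wild type. Without the first wild type library on norflurazon, LHCB2.2 stood at 3.63 and LHCB2.3 at 4.17. No MORF2OX library overlapped a wild type library on norflurazon in any of the 9 genes.

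In MORF2OX(w) the direction was the same and the changes were smaller. LHCB1.4 had 1.60 and 1.61 CPM in MORF2OX(w), against 0.251 and 0.178 CPM in wild type on norflurazon (log2 fold change 2.89, SE 0.40, edgeR adjusted p = 0.00101). Its counterpart on chromosome 1, LHCB1.1, had 7.82 and 5.66 CPM, against 1.01 and 0.855 CPM in wild type (2.86, SE 0.24). LHCB1.3 had 454 and 430 CPM, against 291 and 178 CPM in wild type (0.91, SE 0.21, edgeR adjusted p = 0.0161). The gene with the most transcript thus had one of the smaller changes here too, over the same 2 wild type libraries. LHCB1.2 had 18.3 and 15.7 CPM in MORF2OX(w), against 8.04 and 5.84 CPM in wild type (1.3, SE 0.17), and LHCB1.5 had 126 and 130 CPM, against 75.9 and 41.8 CPM (1.12, SE 0.21). LHCB2.1 (1.79, SE 0.19), LHCB2.2 (1.5, SE 0.27) and LHCB2.3 (1.85, SE 0.30) also passed. Without the first wild type library on norflurazon, LHCB2.2 stood at 2.1 and LHCB2.3 at 2.63. LHCB3 did not pass, with 28.2 and 25.2 CPM in MORF2OX(w), against 21.8 and 13.8 CPM in wild type (0.59, SE 0.20, edgeR adjusted p = 0.0706).

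Thus 8 of the 9 genes passed as higher in MORF2OX(w), beside 8.36% of all genes tested, with a median of 1.5 beside 0.01 over all genes. The 1724 genes behind that share became 4432 without the second wild type library on norflurazon, 592 without the first MORF2OX(w) library and 421 without the second. Minor antenna genes had a median of 1.03, with 4 of 5 higher, and photosystem I antenna genes one of 1.37, with 5 of 6 higher. Of all genes tested, 935 were called lower in MORF2OX(w). Of the cell type markers, 1 root (WER, -1.08), 1 epidermis (PDF1, -0.98) and 1 vascular gene (XCP1, -1.46) were lower in MORF2OX(w) and 1 guard cell gene (HT1, 0.71) was higher. Their part was not tested. The LHCB3 call turned on the setting. Its change passed in DESeq2 (0.60, adjusted p = 0.0150), in edgeR with no filter on low counts (0.58, adjusted p = 0.00799) and in edgeR without the first library of wild type on norflurazon (0.96, adjusted p = 0.0026). In the edgeR fit of the 4 libraries compared alone, 4 of the 9 genes passed. Of all genes, 233 were called higher in that fit, against 1724 in the fit of all libraries. The antenna genes lost there were LHCB1.3, LHCB1.5, LHCB2.2 and LHCB2.3. Without the first MORF2OX(w) library 7 passed, LHCB1.3 being lost, and without the second 6, LHCB1.3 and LHCB1.5 being lost.

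**Figure D3:**
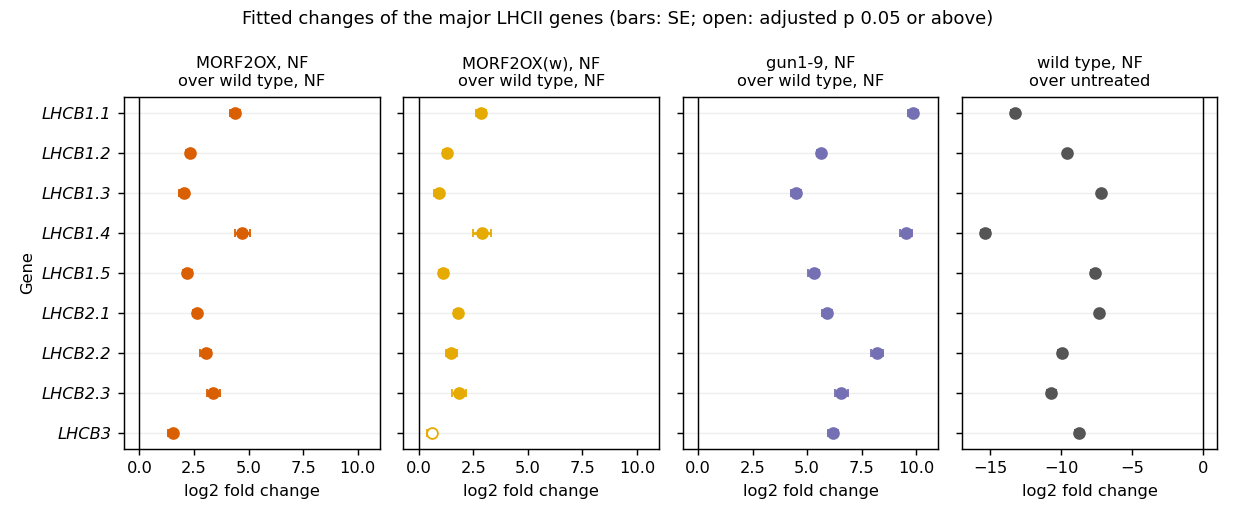
Fitted log2 fold change of each gene (edgeR) for MORF2OX, MORF2OX(w) and gun1-9, each over wild type on norflurazon (NF), and for wild type on norflurazon over untreated wild type. Bars are standard errors, often hidden by the point, and an open point has an adjusted p of 0.05 or above. The open point is LHCB3 in MORF2OX(w), at 0.59, and the first 3 panels share 1 axis range.

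The lines were also compared with each other on norflurazon. All 9 genes were lower in MORF2OX than in gun1-9, beside 18.1% of all genes tested, with log2 fold changes of -5.49 for LHCB1.1 to -2.47 for LHCB1.3 and a median of -3.34. LHCB2.2 (-5.16, SE 0.24), LHCB1.4 (-4.82, SE 0.19) and LHCB3 (-4.67, SE 0.22) also stood far below gun1-9. All 9 were lower in MORF2OX(w) than in gun1-9, beside 19.0% of all genes tested, with log2 fold changes of -6.99 for LHCB1.1 to -3.58 for LHCB1.3. The edgeR adjusted p-values of these values ran from 2.42e-09 to 8.66e-06. In each overexpression line 3 of 5 epidermis and 2 of 5 vascular markers were higher than in gun1-9. Summed root markers were 84.1 and 81.6 CPM in MORF2OX and 78.5 and 83.4 CPM in MORF2OX(w), against 159 and 138 CPM in gun1-9. SCR alone gave 52.9 and 51.4, 46.7 and 50.8, and 127 and 108 CPM of these sums. It was called lower in both lines (-1.17 in MORF2OX, -1.27 in MORF2OX(w)). The medians over the root list were 0.04 in MORF2OX and -0.14 in MORF2OX(w). WER was also lower in MORF2OX(w), SPCH lower in MORF2OX and FAMA, a guard cell marker, higher in both. The part of these cell types was not tested. The counts behind the shares of all genes became 2210 (3742 with all libraries) for MORF2OX without its second library and 2591 (3926) for MORF2OX(w) without the second gun1-9 library, all 9 antenna genes still passing.

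MORF2OX lay above MORF2OX(w) in all 9 genes, with log2 fold changes of 0.85 for LHCB2.1 to 1.83 for LHCB1.4 and edgeR adjusted p-values of 0.00273 to 0.0372. Of the other antenna lists, 3 of 5 minor antenna genes (median 0.90) and 5 of 6 photosystem I antenna genes (median 0.84) were also higher. The 9 of 9 genes of the complex, with a median of 1.11, stand beside 1.5% of all genes tested as higher. That share is itself unstable, since its 309 genes became 1154 and 1152 without the first or second wild type library on norflurazon, and 0 to 187 when a library of any other group was left out. The libraries of the lines overlapped in none of the 9 genes, LHCB3 for example having 46.5 and 55.4 CPM in MORF2OX and 28.2 and 25.2 CPM in MORF2OX(w). These calls rested on few libraries. Without the second MORF2OX(w) library none of the 9 passed in edgeR (9 at an unadjusted p under 0.05), and none of all genes tested (1584 unadjusted). Without the first MORF2OX(w) library 1 passed, LHCB1.1. Without either MORF2OX library 4 passed, without either gun1-9 library 5, and without either untreated library 7. DESeq2 called all 9, and the direction was the same in every fit that left out a library.

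Both overexpression lines remained far below untreated wild type. In MORF2OX the 9 genes had log2 fold changes of -10.63 for LHCB1.4 to -4.69 for LHCB2.1 (35.0% of all genes tested were lower). In MORF2OX(w) they had -12.46 for LHCB1.4 to -5.54 for LHCB2.1 (34.8% of all genes tested were lower), and all 9 passed in both lines.

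The make-up of the antenna transcript pool differed between the groups. LHCB1.3 made up 68.2% and 61.0% of the summed level in the MORF2OX libraries, 65.1% and 63.0% in MORF2OX(w) and 44.0% and 43.8% in gun1-9. It made up 69.0% and 69.2% in norflurazon-grown wild type and 40.3% and 39.8% in untreated wild type. LHCB1.3 therefore held a larger share in the 3 groups with the least antenna transcript. LHCB1.4 held 0.436% and 0.332% in MORF2OX, 0.230% and 0.236% in MORF2OX(w), 1.33% and 1.34% in gun1-9, 0.0596% and 0.0691% in wild type on norflurazon, and 10.01% and 11.47% in untreated wild type. The LHCB2 genes together held 7.96% and 11.1% in MORF2OX, 8.89% and 10.9% in MORF2OX(w) and 14.3% and 15.6% in gun1-9. They held 5.58% and 6.58% in wild type on norflurazon, and 10.1% and 9.21% in untreated wild type. LHCB3 held 2.92% and 4.1% in MORF2OX, 4.04% and 3.70% in MORF2OX(w), 10.7% in both gun1-9 libraries, 5.17% and 5.34% in wild type on norflurazon, and 9.26% and 8.71% in untreated wild type.

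**Figure D4:**
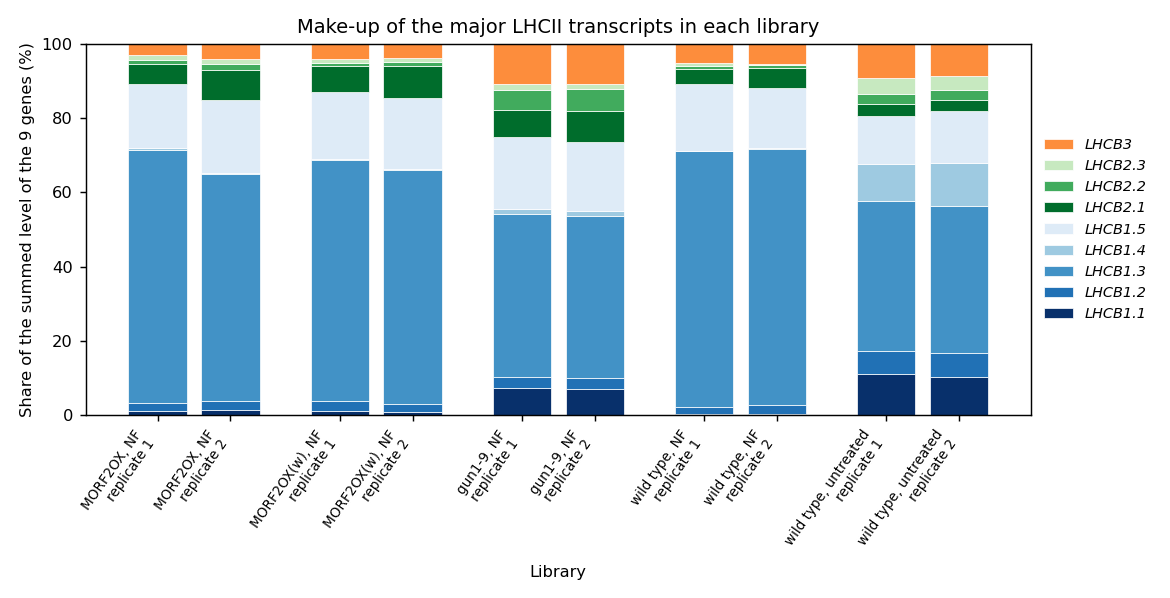
Share of each gene in the summed level of the 9 genes (percent of summed CPM, not divided by gene length) in each of the 10 libraries. Bars are single libraries and the stacked colours are genes. LHCB1.3 fills 61.0% to 69.2% of the bar in both overexpression lines and norflurazon-grown wild type, but 43.8% and 44.0% in gun1-9 and 39.8% and 40.3% in untreated wild type.

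Order within the complex shifted as well (levels as CPM per kilobase of exon). LHCB1.3 was first and LHCB1.5 second in all 5 groups. In untreated wild type LHCB1.1 and LHCB1.4 followed at 6952 and 6927 CPM per kilobase, a difference within the spread of the replicates, and then LHCB3 at 6157. In the 4 groups on norflurazon LHCB1.4 was last, at 4.36 CPM per kilobase in MORF2OX, 1.23 in MORF2OX(w), 123 in gun1-9 and 0.164 in wild type. LHCB2.1, last in untreated wild type at 1799 CPM per kilobase with LHCB2.2 and LHCB2.3 overlapping their neighbours there, stood behind LHCB1.3 and LHCB1.5 in MORF2OX and MORF2OX(w) (69.8 and 38.7), and next after LHCB3 in gun1-9 (669) and wild type (11.2) on norflurazon. Its libraries overlapped those of LHCB1.1 in gun1-9 and those of LHCB3 in wild type.

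Ratios within a library take out differences in depth and scaling between libraries. The head-to-head pair LHCB1.4 over LHCB1.5 had ratios of 0.0203 and 0.0135 in MORF2OX, 0.0102 and 0.00988 in MORF2OX(w), 0.0542 and 0.0570 in gun1-9, 0.00264 and 0.00340 in wild type on norflurazon, and 0.613 and 0.646 in untreated wild type (ratios of CPM per kilobase). The 5 groups did not overlap. All 4 groups on norflurazon lay below untreated wild type, gun1-9 being the nearest to it. LHCB1.1 over LHCB1.3 followed the same order, at 0.0167 and 0.0214 in MORF2OX, 0.0161 and 0.0123 in MORF2OX(w), 0.156 and 0.149 in gun1-9, 0.00324 and 0.00449 in wild type on norflurazon, and 0.260 and 0.242 in untreated wild type. With 2 libraries against 2, an exact permutation test of such a ratio cannot give a two-sided p below 0.333, so the ratios are given as values.

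Among the LHCB2 genes, the near-identical copies LHCB2.1 and LHCB2.2 stood near each other in gun1-9 and in untreated seedlings and apart in the other 3 groups. LHCB2.2 over LHCB2.1 was 0.241 and 0.236 in MORF2OX, 0.164 and 0.136 in MORF2OX(w), 0.953 and 0.837 in gun1-9, 0.226 and 0.132 in wild type on norflurazon, and 1.1 and 1.13 in untreated wild type. In gun1-9 this ratio lay nearest to, and below, that of untreated wild type, and the MORF2OX(w) values lay within those of wild type on norflurazon. LHCB2.3 over LHCB2.1 was 0.262 and 0.165 in MORF2OX, 0.135 and 0.125 in MORF2OX(w), 0.226 and 0.171 in gun1-9, 0.165 and 0.0792 in wild type on norflurazon, and 1.27 and 1.29 in untreated wild type. So LHCB2.3 stayed low relative to LHCB2.1 in gun1-9, unlike LHCB2.2. LHCB3 over LHCB1.3 set the lines apart in another way, at 0.0424 and 0.0664 in MORF2OX, 0.0615 and 0.0582 in MORF2OX(w), 0.241 and 0.243 in gun1-9, 0.0742 and 0.0763 in wild type on norflurazon, and 0.228 and 0.217 in untreated wild type. Here gun1-9 lay slightly above untreated wild type, and both overexpression lines lay below wild type on norflurazon, with no overlap.

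Summed over the near-identical copies, LHCB1.1 to LHCB1.3 stood at 2.08% of the untreated mean in MORF2OX, 0.960% in MORF2OX(w), 13.4% in gun1-9 and 0.50% in wild type on norflurazon. LHCB2.1 and LHCB2.2 together stood at 2.43%, 1.26%, 33.6% and 0.376% in these 4 groups.

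**Figure D5:**
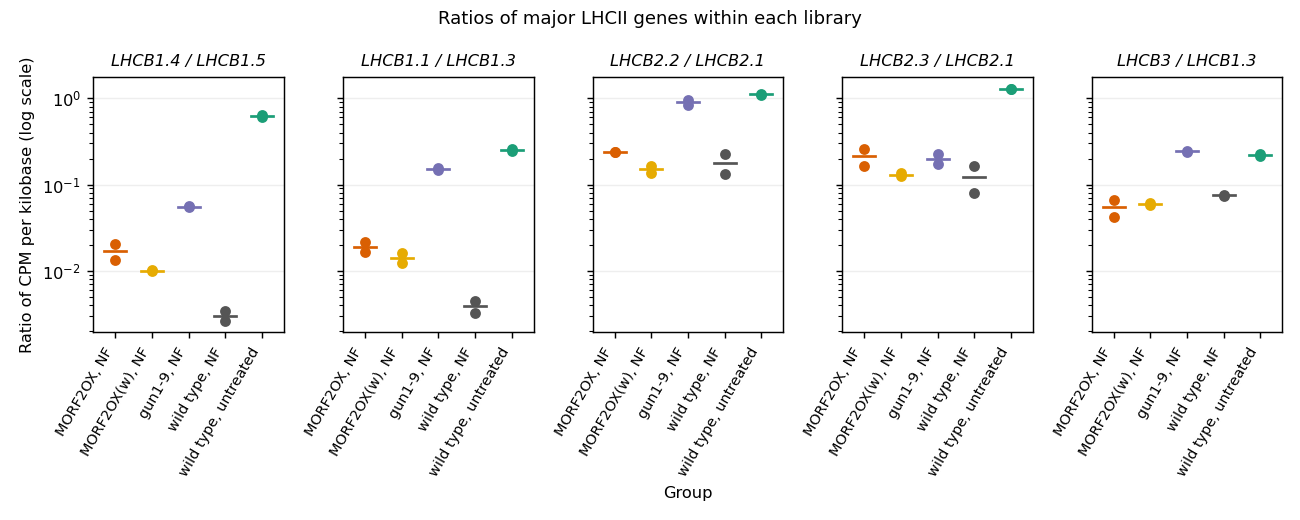
Ratios of 2 genes within a library (CPM per kilobase of exon, log axis) for 5 pairs, with libraries as points and group means as lines (n = 2). Groups run from MORF2OX, MORF2OX(w), gun1-9 and wild type on norflurazon (NF) to untreated wild type. LHCB2.2 / LHCB2.1 in gun1-9 (0.953 and 0.837) is next to untreated wild type (1.1 and 1.13), whereas LHCB2.3 / LHCB2.1 in gun1-9 (0.226 and 0.171) is within the range of the groups on norflurazon.

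Lists of genes for other steps in the life of LHCII are to be read beside the share of all genes called, 34.5% as lower on norflurazon in wild type, and 19.3%, 8.36% and 22.9% as higher in MORF2OX, MORF2OX(w) and gun1-9. Of 6 genes for import and insertion, 5 were lower in wild type on norflurazon than untreated, led by cpSRP43 (-2.51), a subunit of the chloroplast signal recognition particle, LTD (-1.96), which hands the protein over from the import pore, and the receptor cpFtsY (-1.81). In MORF2OX 5 were higher than in wild type on norflurazon, led by the insertase ALB3 (1.15), cpSRP43 (0.97) and LTD (0.83), and in MORF2OX(w) 4, led by ALB3 (0.73), LTD (0.58) and cpSRP43 (0.54). In gun1-9 5 were higher, led by cpSRP43 (1.59), cpSRP54 (1.2) and ALB3 (1.15), and ALB4, a relative of ALB3, was lower (-0.54). The list's medians were 0.80, 0.53 and 1.12 in these 3 lines and -1.53 for norflurazon in wild type.

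All 4 genes for the kinases and phosphatases of LHCII and photosystem II were lower on norflurazon in wild type, led by the LHCII kinase STN7 (-1.93), the LHCII phosphatase TAP38 (-1.86) and the core kinase STN8 (-1.26). All 4 were higher in MORF2OX than in wild type on norflurazon, led by STN7 (1.22), STN8 (0.91) and TAP38 (0.89). In MORF2OX(w) 3 were, STN7 (0.72), STN8 (0.65) and TAP38 (0.41), and in gun1-9 all 4, led by TAP38 (1.68), the core phosphatase PBCP (1.48) and STN7 (1.42). Chlorophyll b holds LHCII together, and CAO, the enzyme that makes it, had 32.4 CPM in wild type on norflurazon, against 694 CPM untreated (-4.42, SE 0.13). Of the 6 genes of the chlorophyll b cycle and turnover 5 were lower on norflurazon in wild type, with the chlorophyll b reductases NYC1 (-1.09) and NOL (-0.82) next to CAO. Higher than wild type on norflurazon were 4 in MORF2OX, led by CAO (1.43), NYC1 (0.55) and SGR1 (0.46), which starts chlorophyll breakdown. In MORF2OX(w) CAO alone passed (0.88), and in gun1-9 CAO (2.64), NYC1 (1.62) and SGR1 (0.43) did.

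Of 10 regulators listed for LHCB transcription, 9 were tested, ABI4 having at most 3 counts in any group. In wild type on norflurazon 6 were lower, led by GLK1 (-5.65), GLK2 (-3.13), a pair of factors that drive antenna genes, and CCA1 (-1.87), a clock factor. HY5 (1.51), a light signalling factor, and the photoreceptor gene PHYA (1.09) were higher. GLK1 had 8.81 and 8.65 CPM in MORF2OX, 7.31 and 6.17 in MORF2OX(w), 104 and 101 in gun1-9, 3.06 and 5.13 in wild type on norflurazon, and 214 and 203 in untreated wild type. GLK1 thus had the same order of groups as the antenna genes, with no overlap between groups. Between MORF2OX and MORF2OX(w), however, 0 of the 9 regulators passed in either direction. The fitted changes of GLK2 had the same order. Means of CCA1 did too, but its libraries overlapped between gun1-9 (184 and 167 CPM) and MORF2OX (155 and 195 CPM). LHY and PHYA did not share that order. Mean levels of LHY and PHYA were lowest in gun1-9 among the groups on norflurazon (209 and 191 CPM). In both genes the libraries of gun1-9 overlapped those of wild type on norflurazon and lay below those of both overexpression lines. The part of GLK1 in the antenna values was not tested. In MORF2OX 6 regulators were higher than in wild type on norflurazon, led by CCA1 (1.19), GLK1 (1.08) and GLK2 (0.89), and in MORF2OX(w) 5, led by CCA1 (0.79), GLK1 (0.71) and GLK2 (0.58). In gun1-9 5 were higher, led by GLK1 (4.63), GLK2 (1.90) and PHYB (1.34), and HY5 was lower (-1.06). All values in these lists are log2 fold changes from the same edgeR fit with adjusted p under 0.05.

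Likeness of pattern was measured as the root mean square difference between centred log2 CPM over the 10 libraries. Among genes outside the complex, AOC2 (0.41), AT1G29720 (0.48), AT2G27420 (0.52), RBCS2B (0.67) and PSBQ-2 (0.76) lay nearest to the median of the 9 genes. RBCS2B encodes a small subunit of Rubisco, PSBQ-2 a protein of the oxygen-evolving complex and AOC2 an allene oxide cyclase of jasmonate synthesis. AOC2, AT2G27420 and AT1G29720 had 3, 4 and 9 counts in wild type on norflurazon, so their likeness there depends on the prior count of 2. Within the complex LHCB1.3 and LHCB1.5 were nearest to each other (0.30), and PSBQ-2 lay nearer to both (0.19 and 0.24). LHCB1.1 and LHCB1.4 were also nearest to each other, at 0.85, and LHCB1.2 and LHCB2.3 at 0.49. The nearest member to LHCB2.2 was LHCB3 (0.67) and not its near-identical copy LHCB2.1.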

How the data were processed

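Each library has 1 deposited file of read counts per gene, not normalized. The TAIR10 genome and the tools edgeR, HTSeq 0.6.1, Bowtie2 2.3.1 and TopHat2 2.1.1 are named, per the submitters' processing notes; per the labels' protocols the kit was stranded and selected polyadenylated RNA, read from a single end. Which settings were used for strand and for reads that fit several genes is not given in the sources used here.

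The members and gene lists were chosen with earlier results of these data known. All 10 libraries entered 1 fit of 5 group means, without a block, in edgeR 4.0.16 (R 4.3.3; glmQLFit, glmQLFTest) with TMM factors of 0.722 to 1.27. Genes were filtered with filterByExpr, and Benjamini-Hochberg adjustment ran over 20628 genes (threshold 0.05). The script was tested on simulated data. The SE is the log2 fold change divided by the square root of F. CPM use the TMM library sizes, and percent shares and sums were computed from them. Replicate numbers do not pair libraries (correlations of -0.102 to 0.0892). All 9 members are named throughout. In the lists on import, phosphorylation, chlorophyll b and regulators, up to 3 genes per direction are named, those that passed with the largest folds, in each of 4 main comparisons. Alternatives were RLE factors, library totals, DESeq2 1.42.0, no filter, only the 4 libraries compared, a replicate block, summed copies, and each library left out.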

Additional observations from a re-analysis of the deposited data

How the results depend on the processing

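Over 16 alternatives, the 9 genes gave 1440 values in 10 comparisons, of which 1389 kept their direction and their side of the threshold, 48 no longer passed, 3 newly passed and 0 reversed. All 51 changes lay in MORF2OX(w) over wild type on norflurazon (7 lost, 3 gained) and in MORF2OX over MORF2OX(w) (41 lost). In MORF2OX(w) over wild type on norflurazon, the fit of only the 4 libraries compared called 233 of all genes higher, against 1724 in the main fit. Between MORF2OX and MORF2OX(w), such a fit called 1286 of all genes in either direction, against 374. Of the 9 genes, 4 passed in the fit for MORF2OX(w) over wild type. In MORF2OX over MORF2OX(w), 0 to 9 passed when a library was left out. The cause was not tested.

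With library totals in place of TMM factors, the median log2 fold change of all genes shifted to 0.70 for norflurazon in wild type, -0.45 for gun1-9, -0.32 for MORF2OX and -0.19 for MORF2OX(w) over wild type. The share of calls that were higher then became 78.5% (47% with TMM), 20.2% (52.3%), 18% (57.9%) and 22.9% (64.8%) in these 4 comparisons. It became 70.3% (46.7%) for MORF2OX(w) over gun1-9, 52.1% (82.6%) for MORF2OX over MORF2OX(w), and 67.6% (48.8%), 67.1% (47.1%) and 72.2% (46.9%) for gun1-9, MORF2OX and MORF2OX(w) over untreated wild type. The 9 genes kept their directions under this scaling, with log2 fold changes of -14.62 to -6.44 for norflurazon in wild type and 4.08 to 9.44, 1.18 to 4.38 and 0.40 to 2.70 for gun1-9, MORF2OX and MORF2OX(w) over wild type on norflurazon. In MORF2OX over MORF2OX(w), 7 of the 9 passed with library totals.

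The replicate numbers share no source in the labels. With the number as a replicate block, the calls of the 9 genes were the same in all 10 comparisons, and 388 genes passed between MORF2OX and MORF2OX(w), against 374 without it. With near-identical copies summed, the median over the resulting 6 values was -8.41 for norflurazon in wild type, against -9.59 over the 9 genes. Counts of 11 and 48 in wild type on norflurazon limit the precision of LHCB1.4 and LHCB1.1.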
